A study of Mus musculus with 6 samples.

Results

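The T cell receptor variable segments are the germline gene pieces named Trav, for the alpha chain, and Trbv, for the beta chain. The deposited expression table held 165 of them among 55951 genes, 130 Trav and 35 Trbv. The 109 described here, 81 Trav and 28 Trbv, are those with a value above 0 in at least 1 of the 6 libraries. Their values in these libraries therefore chose them, and the other 56 stood at 0 throughout. The threshold was set by single reads: 9 members (Trav11d, Trav12-4, Trav18, Trav22, Trav7d-5, Trbv12-3, Trbv25, Trbv6 and Trbv9) rested on 1 read in all libraries together, and 21 rested on 10 reads or fewer.

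Polyadenylated RNA was sequenced in 6 libraries. They came from spleens of C57BL/6 mice that carry an S100A4-EGFP reporter, in which EGFP marks cells expressing S100A4, a small calcium-binding protein. Asthma had been induced with ovalbumin (OVA) in the mice of both groups, and the labels list the sorted cells as untreated. CD8+ effector-memory T cells were sorted by flow cytometry, using CD3, CD8 and CD44 as positive and CD4 as negative markers beside another gate for that state, and divided into EGFP-negative cells (S100A4-negative, 3 libraries) and EGFP-positive cells (S100A4-positive, 3 libraries). The labels do not say whether the 3 samples of a population came from separate animals, so each p-value measures only the spread between these samples. The age of the mice was not used here.

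A T cell builds its receptor by cutting and joining DNA: a V segment is joined to a J segment in the alpha chain, and to a D and a J segment in the beta chain, and the product is spliced to a constant exon. The V segment gives the first and second antigen-contact loops and the start of the third loop, which begins after a conserved cysteine. A mixed T cell population carries many V segments side by side, while an expanded clone raises the share of the V segments it uses. In bulk RNA a segment's level sums over all T cells in the sample, so fewer T cells and less receptor RNA per cell cannot be told apart.

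On GRCm38 the Trav segments lay on chromosome 14 between positions 52427928 and 53977678, all on the plus strand. The Trbv segments lay on chromosome 6 between 40891229 and 41558452, with 34 on the plus strand. Trbv31 alone lay on the minus strand, at 41557691 to 41558452, and is known to join by inversion. Of the members, 94 are annotated as V genes and 15 as pseudogenes (9 Trav and 6 Trbv). The letters d and n in Trav names mark duplicated copies of a stretch of the locus.

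The germline 3′ ends below show where segments can and cannot be told apart by sequence. Each is the last 45 bases of the coding sequence in GENCODE M21 (GRCm38), 5′ to 3′, with every in-frame cysteine codon in capitals. The leading Trbv segments come first and differ from one another over this stretch.
Trbv13-2: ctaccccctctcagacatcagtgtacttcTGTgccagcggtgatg
Trbv13-1: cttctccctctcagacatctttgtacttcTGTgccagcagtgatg
Trbv12-1: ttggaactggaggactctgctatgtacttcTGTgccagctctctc
Trbv16: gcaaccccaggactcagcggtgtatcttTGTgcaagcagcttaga
Trbv29: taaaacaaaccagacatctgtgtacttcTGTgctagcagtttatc
Trbv15: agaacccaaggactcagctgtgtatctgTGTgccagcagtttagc
Trbv1: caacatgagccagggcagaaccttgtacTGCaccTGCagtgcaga
Trbv14: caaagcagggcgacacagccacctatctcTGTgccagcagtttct

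The leading Trav segments were less distinct. Trav14-1, Trav14-2 and Trav14n-3 share all of their last 45 bases, whereas the copies Trav14d-2 and Trav14n-2, both at 0 in every library, match each other over their whole coding sequence of 364 bases. Trav13-2 is shown because its share in a single library was the highest of any Trav segment, beside Trav13-1 and Trav19, which were among the 5 segments with the highest mean share in S100A4-negative libraries, and Trav13d-2, a copy at 0.
Trav14-1: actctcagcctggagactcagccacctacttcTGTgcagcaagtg
Trav14-2: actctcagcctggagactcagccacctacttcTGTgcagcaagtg
Trav14n-3: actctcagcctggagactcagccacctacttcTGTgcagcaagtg
Trav14d-2: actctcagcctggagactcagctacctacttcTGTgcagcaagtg
Trav14n-2: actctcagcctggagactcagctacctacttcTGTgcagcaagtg
Trav13-1: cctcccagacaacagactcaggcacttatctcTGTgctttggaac
Trav13-2: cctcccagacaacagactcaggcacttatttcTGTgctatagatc
Trav13d-2: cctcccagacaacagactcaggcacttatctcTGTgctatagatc
Trav19: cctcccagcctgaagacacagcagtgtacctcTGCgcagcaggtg

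Among the Trav segments annotated as V genes, those at 0 were nearly all duplicated ones. Of the 110 Trav segments annotated as V genes, 38 were at 0 in all libraries, and 36 of these 38 have another segment with the same coding sequence (one contained in the other). The remaining pair, Trav13d-3 and Trav13n-3, shared their last 45 bases with each other and with further Trav13 segments. For every one of the 38, at most 7.92% of the windows of 50 bases along the transcript were found in no other gene's transcript, and at most 15.8% of windows of 100 bases. Among the 72 above 0, the median share of such unique windows of 50 bases was 55.2%, and 6 had under 10% of them. The 4 at 0% were those with an identical copy: Trav11d, Trav15n-2, Trav3d-3 and Trav7d-5, each with 3 reads or fewer in all libraries together.

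**Figure D1:**
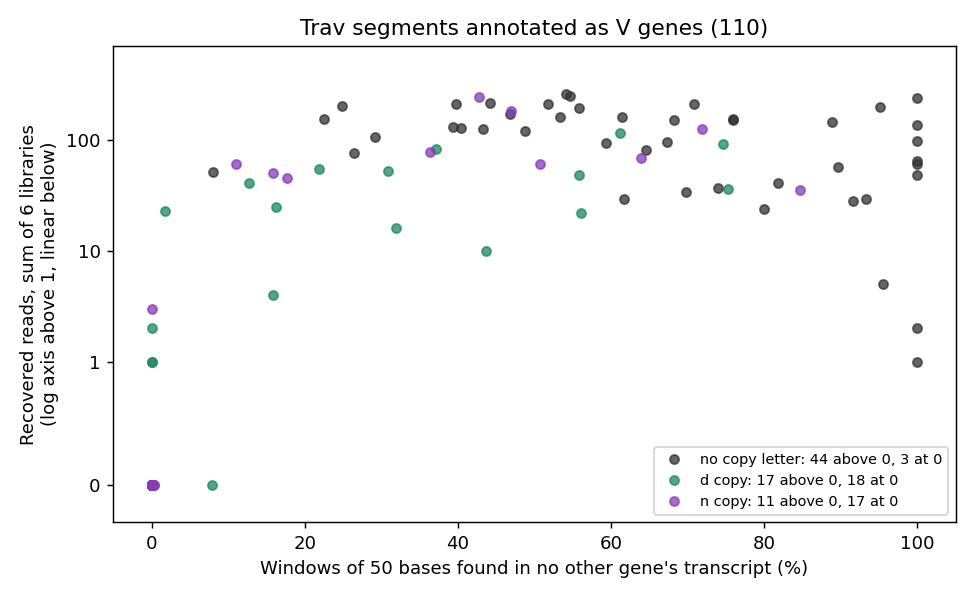
Recovered reads summed over the 6 libraries (vertical axis, logarithmic above 1 and linear below) against the percentage of 50-base windows found in no other gene's transcript (horizontal axis), with a point for each of the 110 Trav segments annotated as V genes, coloured by the copy letter in the name. The 38 segments at 0 lie at 7.92% or less.

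The duplicated copies carried most of the zeros. Of 47 Trav V genes without a copy letter 44 were above 0, against 17 of 35 with the letter d and 11 of 28 with the letter n. In each library the d copies still made up 7.12% to 11.1% of the summed Trav FPKM (the deposited unit, fragments scaled by gene length and library size), and the n copies 12.0% to 22.3%. The Trbv segments did not have this limit: all 22 Trbv V genes were above 0, none has an identical copy, and their median share of unique 50-base windows was 100%. Trbv5 (22.6%) and Trbv4 (27.9%) had the fewest unique windows, and the 7 Trbv segments at 0 are all annotated as pseudogenes. How the authors' counting treated reads that match several copies is not given in the sources used here, so a Trav level, and a level of 0 in a duplicated segment, is uncertain among copies.

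Both chains were several-fold lower in S100A4-positive than in S100A4-negative libraries. Values here and throughout are in the order of replicates 1, 2 and 3. The summed Trav FPKM was 333, 308 and 252 in S100A4-negative libraries and 39.0, 40.6 and 59.7 in S100A4-positive ones, which is 298 ± 41.4 against 46.4 ± 11.5 (SD, n = 3) or 6.41-fold. The summed Trbv FPKM was 798, 707 and 660 against 81.2, 88.0 and 118, which is 721 ± 70.1 against 95.7 ± 19.5 (SD, n = 3) or 7.54-fold. The groups did not overlap for either chain, and S100A4-positive replicate 3 was the highest of its group in both. No test was made of these sums, since the members were chosen on the same values.

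Depth limits what the S100A4-positive libraries can show. The FPKM could be turned back into whole reads, 14925260 to 18660188 per library. Trav segments held 2135, 2066 and 1761 of these reads in S100A4-negative libraries, against 246, 231 and 390 in S100A4-positive ones. Trbv segments held 5161, 4848 and 4671 against 533, 506 and 795. A segment with 0 reads in a library could thus still hold up to 0.140% to 0.170% of Trav reads in an S100A4-negative library and up to 0.769% to 1.30% in an S100A4-positive one, taking 3 reads as the limit that a count of 0 allows. For Trbv the limits were 0.0581% to 0.0642% and 0.377% to 0.593%. These limits and all intervals cover counting error only.

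Relative to the receptor's other transcripts the variable segments overlapped between groups. The summed Trav FPKM over that of Trac, the alpha constant gene, was 0.728, 0.677 and 0.738 in S100A4-negative libraries and 0.574, 0.670 and 0.747 in S100A4-positive ones. The summed Trbv FPKM over Trbc1 plus Trbc2, the beta constant genes, was 1.19, 0.978 and 1.07 against 1.06, 0.965 and 1.02. Over Cd3e, a signalling subunit of the receptor complex, the Trav ratio was 2.13, 1.95 and 2.03 against 1.74, 2.26 and 1.98, and the Trbv ratio 5.10, 4.48 and 5.31 against 3.63, 4.90 and 3.91.

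The constant genes fell with the segments. Trac was 458, 455 and 342 FPKM against 67.9, 60.6 and 79.9 (limma adjusted p = 4.23e-05, log2 fold change -2.57, SE 0.17). Of the 10 receptor complex genes in the list (Trac, Trbc1, Trbc2, Cd3d, Cd3e, Cd3g, Cd247, Cd8a, Cd8b1 and Cd4) 9 were called lower, with a median log2 fold change of -2.59 beside -0.36 over all genes tested. Cd8b1, the beta chain of the CD8 coreceptor, changed most (-3.15, limma adjusted p = 0.000171). Cd4 was not called (-1.35, limma adjusted p = 0.0576).

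Segment by segment, 70 of the 109 members had a mean of at least 1 FPKM and entered limma's test on log2(FPKM + 1), a scale that understates the change of low genes. Of these, 67 were called lower in S100A4-positive libraries (47 of 50 Trav and 20 of 20 Trbv) and 0 higher, at an adjusted p under 0.05. Of all 13241 genes tested, 43.4% were called lower and 19.0% higher. The median log2 fold change was -1.74 over the tested Trav and -2.48 over the tested Trbv segments. With a pseudocount of 0.1 the medians were -2.74 and -2.66, and with limma voom on recovered reads -2.77 and -2.67, without that gap. Other settings kept a gap: -2.33 and -2.61 with a filter at a mean of 5 FPKM, -1.51 and -2.12 after median-of-ratios rescaling. The log2 ratios of the summed levels were -2.68 for Trav and -2.91 for Trbv. The members that passed the filter were mostly carried by the S100A4-negative libraries, so the counts describe the tested members and not all 109. The authors' deposited table called 57 members lower and 0 higher, where it called 7.35% of its genes lower. Trav13-2, Trav7n-4 and Trav8d-1 were tested and not called.

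FPKM did not overlap between groups, with S100A4-negative above, in 66 of the 70 tested members, where this held for 49.1% of all genes tested. Over all 109 members it held for 81, where it held for 29.8% of genes above 0. No member had S100A4-positive above. There were 63 members above 0 in all 6 libraries, 16 above 0 only in S100A4-negative and 3 only in S100A4-positive libraries. The latter are Trav12-4, Trav3d-3 and Trbv9, with 1, 2 and 1 reads.

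Marker lists of T cells and other spleen cells also differed between groups, where 43.4% of all genes tested were called lower and 19.0% higher. The 10 T cell markers were all called lower (summed FPKM 1355 to 1710 against 220 to 318), and the 10 macrophage markers all higher (414 to 569 against 6098 to 7016). B cell markers were called lower in 7 of 8 (7123 to 12514 against 1519 to 1567), neutrophil markers in 7 of 8 (3268 to 4873 against 412 to 1719), and natural killer markers in 3 of 3 tested of 6 (44.2 to 102 against 12.5 to 24.0). No marker of these 5 lists was at 0 in all libraries. Their part in the segment levels was not tested.

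Among beta segments, Trbv13-2 had the highest mean share of the summed Trbv FPKM in S100A4-positive libraries, and Trbv13-1 in S100A4-negative ones. They belong to the family serologists call Vβ8. Trbv13-2 was at 75.9, 84.4 and 58.6 FPKM in S100A4-negative libraries and 8.16, 12.4 and 13.1 in S100A4-positive ones (log2 fold change -2.61, SE 0.21, limma adjusted p = 8.97e-05). Trbv13-1 was at 63.1, 64.3 and 90.0 against 6.07, 6.70 and 11.9 FPKM (-3.03, SE 0.25, limma adjusted p = 0.000107). Trbv13-3, the remaining member of the family, was at 47.5, 38.4 and 30.9 against 5.38, 2.76 and 3.90 FPKM (-3.01, limma adjusted p = 8.23e-05). The groups did not overlap for any of them. Together the family held 23.4%, 26.5% and 27.2% of the summed Trbv FPKM in S100A4-negative libraries and 24.2%, 24.9% and 24.4% in S100A4-positive ones, so the family's share overlapped while its level did not.

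Trbv12-1, in the family used by the OT-I receptor, which recognises ovalbumin, was at 92.1, 48.3 and 64.2 FPKM against 7.74, 3.62 and 13.3 (log2 fold change -3.01, SE 0.41, limma adjusted p = 0.000806). The levels did not overlap, but replicate 2 was the lowest of each group. Its share was 11.5%, 6.84% and 9.73% against 9.53%, 4.11% and 11.3%, which overlapped. With Trbv12-2 and the pseudogene Trbv12-3 the family held 17.6%, 11.7% and 16.4% against 16.5%, 7.87% and 16.9%.

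Trbv16 had the smallest SE of the named segments, at 57.1, 60.4 and 53.6 against 4.89, 6.73 and 5.79 FPKM (log2 fold change -3.10, SE 0.14, limma adjusted p = 1.33e-05). Trbv14 had the largest log2 fold change of the tested members on the log2(FPKM + 1) scale, while with a pseudocount of 0.1 it was exceeded by Trav1 (-3.90 against -4.22), as it was with limma voom (-3.88 against -4.34). It was at 72.0, 28.0 and 30.4 against 4.49, 1.46 and 2.51 FPKM (-3.49, SE 0.42, limma adjusted p = 0.00044), and replicate 1 was the highest of each group. As shares, Trbv14 held 9.03%, 3.96% and 4.61% against 5.53%, 1.65% and 2.12%, which overlapped. The smallest log2 fold change among the tested Trbv segments was -1.31, that of Trbv30.

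**Figure D2:**
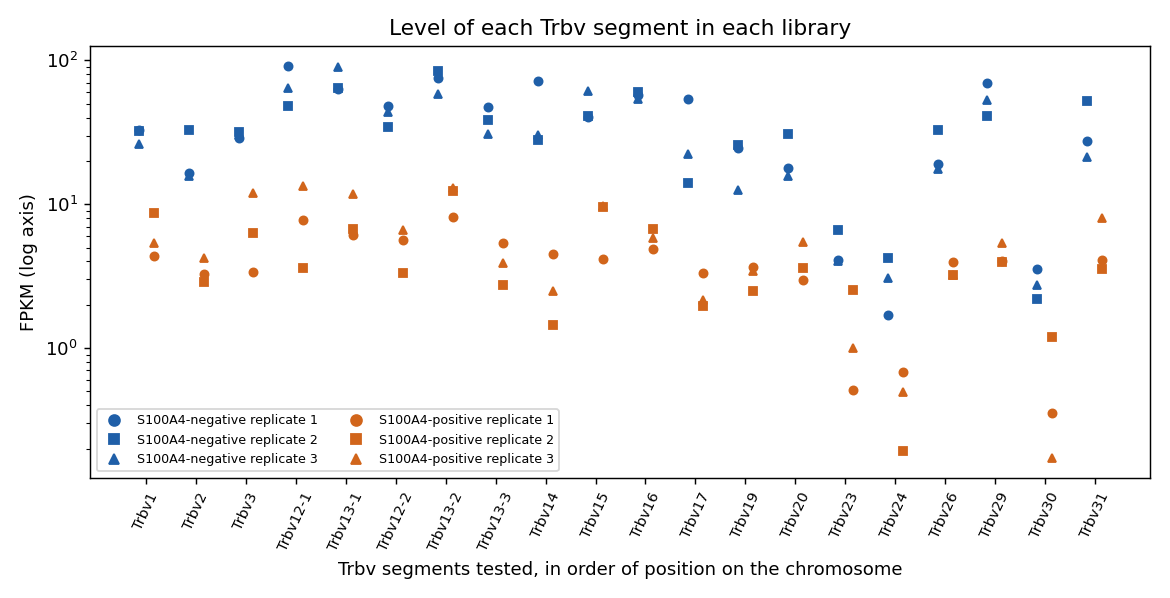
FPKM of the 20 tested Trbv segments in each of the 6 libraries, on a logarithmic axis and ordered by position on the chromosome, with S100A4-negative libraries in blue and S100A4-positive ones in orange. The S100A4-negative points lie above the S100A4-positive points in all 20 segments.

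Shares separated the groups for few segments. A share is a segment's part of its own chain's summed FPKM in a library, so it is unaffected by the total. Shares overlapped between the groups for 95 of 109 members. They were higher in S100A4-negative libraries without overlap for 11 and higher in S100A4-positive ones for 3, Trav6n-5, Trav7n-4 and Trbv1. Among the 11, Trav20 held 0.102% to 0.184% and Trbv21 0.0474% to 0.242% in S100A4-negative libraries. Both were at 0 in S100A4-positive libraries, where a count of 0 allows up to 0.769% to 1.30% for Trav and 0.377% to 0.593% for Trbv. Shares exist only for these segments, so no background over all genes can be given, and no test was made. With 3 libraries in each group, some shares separate without any group difference.

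Trbv29 and Trbv1 were the 2 Trbv segments with a mean of at least 5 FPKM whose shares did not overlap. Trbv29 held 8.77%, 5.77% and 8.05% in S100A4-negative libraries and 4.94%, 4.53% and 4.57% in S100A4-positive ones. Its level was 69.9, 40.8 and 53.1 against 4.01, 3.99 and 5.39 FPKM (log2 fold change -3.32, SE 0.21, limma adjusted p = 4.2e-05). The nearest Trbv29 shares of the groups were 5.77% and 4.94%, the latter in a library with 533 Trbv reads in all. The part of counting error in this gap was not tested. Trbv1 held 4.13%, 4.54% and 3.97% against 5.41%, 9.86% and 4.57%, on levels of 32.9, 32.1 and 26.2 against 4.39, 8.68 and 5.39 FPKM (-2.17, SE 0.23, limma adjusted p = 0.000256). For Trbv1 the gap was small: 4.54% was the highest value of one group and 4.57% the lowest of the other. In reads, S100A4-positive replicate 3 gave Trbv1 a share of 4.91% with a 95% Wilson interval of 3.61% to 6.64%, which spans the S100A4-negative values.

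Trbv3 and Trbv15, also among the leading beta segments, overlapped in share. Trbv3 held 3.64%, 4.46% and 4.59% against 4.16%, 7.19% and 10.1%, with levels of 29.0, 31.5 and 30.3 against 3.37, 6.33 and 11.9 FPKM (log2 fold change -2.07, limma adjusted p = 0.00198). Trbv15 held 5.05%, 5.83% and 9.22% against 5.11%, 10.9% and 8.19%, with levels of 40.3, 41.2 and 60.8 against 4.15, 9.60 and 9.66 FPKM (-2.51, limma adjusted p = 0.000517). Replicate 1 was the lowest of its group for both segments in the S100A4-positive libraries.

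Among alpha segments no single one led both groups. The highest share in each library belonged to Trav19 (4.96%), Trav7-4 (4.21%) and Trav14-2 (6.08%) in S100A4-negative replicates 1, 2 and 3, and to Trav14-2 (6.39%), Trav8-1 (5.53%) and Trav13-2 (10.9%) in S100A4-positive replicates 1, 2 and 3. By contrast Trbv13-2, Trbv13-1 or Trbv12-1 led in each of the 6 libraries for the beta chain, at 10.1% to 14.1%.

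Trav13-2 in S100A4-positive replicate 3 was the most uneven value of the alpha chain. The segment was at 7.25, 4.04 and 3.02 FPKM in S100A4-negative libraries and at 1.06, 0.859 and 6.50 in S100A4-positive ones. These rested on 48, 28 and 22 against 7, 5 and 44 reads. Its read share was 11.3% in S100A4-positive replicate 3 (95% Wilson interval 8.51% to 14.8%), while in the other 5 libraries it was 1.25% to 2.85%. The levels overlapped and the difference was not called (log2 fold change -0.85, SE 0.54, limma adjusted p = 0.207). Without S100A4-positive replicate 3 it was called lower (-1.49, limma adjusted p = 0.00975). Its share of unique 50-base windows, 76.0%, is above the median of 55.2%.

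Trav13-1, the related segment with a similar 3′ end, was not high in that library. It was at 16.0, 12.9 and 10.2 against 1.07, 1.62 and 1.04 FPKM (log2 fold change -2.63, SE 0.20, limma adjusted p = 7.69e-05). On this scale that was the largest change among tested Trav segments, but with limma voom it was -3.30 beside -4.34 for Trav1. Its shares of 4.81%, 4.20% and 4.04% against 2.74%, 3.99% and 1.75% did not overlap, with 4.04% and 3.99% as the nearest values of the groups.

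The Trav14 family, whose members share most of their 3′ ends, held 11.7%, 12.3% and 16.0% of the summed Trav FPKM in S100A4-negative libraries and 15.2%, 14.5% and 13.7% in S100A4-positive ones. It is also the family of the alpha chain of OT-I. Trav14-2 was at 14.4, 9.32 and 15.3 against 2.49, 0.404 and 1.74 FPKM (log2 fold change -2.53, SE 0.35, limma adjusted p = 0.000852), the lowest value resting on 2 reads. Trav14-1 was at 10.9, 7.76 and 5.37 against 0.887, 1.68 and 1.88 FPKM (-1.84, limma adjusted p = 0.00112). Trav14n-3 was at 7.34, 11.0 and 8.35 against 1.84, 1.04 and 2.69 FPKM (-1.82, limma adjusted p = 0.000849). Each was lower in all 3 S100A4-positive libraries, and which of them was highest changed from library to library. Trav14-3 (-1.50, limma adjusted p = 0.00563) and Trav14d-3-dv8 (-1.68, limma adjusted p = 0.00129), whose name marks use with the delta chain as well, were also called lower. The other 4 Trav14 rows of the table were at 0.

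Trav16n, Trav5-4, Trav19 and Trav8-1 complete the leading alpha segments. Trav16n was at 14.9, 7.49 and 8.40 against 0.770, 2.10 and 2.71 FPKM (log2 fold change -1.99, limma adjusted p = 0.00208). Trav5-4 was at 13.7, 6.40 and 8.75 against 1.55, 0.977 and 0.672 FPKM (-2.33, limma adjusted p = 0.000486). Trav19, the only one of the 4 with 100% unique windows, was at 16.5, 6.43 and 5.41 against 0.397, 1.35 and 0.905 FPKM (-2.35, limma adjusted p = 0.00189). In the S100A4-negative group replicate 1 was the highest for these 3 segments. Trav8-1 was at 4.85, 9.09 and 5.06 against 0.900, 2.25 and 0.703 FPKM (-1.70, limma adjusted p = 0.00295), with replicate 2 the highest of each group.

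Trav7n-4 and Trav6n-5, chosen after their values were seen, were the alpha segments whose shares were higher in the S100A4-positive group. Trav7n-4 held 0.726%, 0.697% and 0.561% against 1.33%, 2.42% and 4.53%, on 14, 13 and 9 against 3, 5 and 16 reads. Trav6n-5 held 0.732%, 0.649% and 0.817% against 2.24%, 0.976% and 1.14%, on 14, 12 and 13 against 5, 2 and 4 reads. In the opposite direction Trav7-6 held 0.863%, 1.28% and 3.56% against 0.462%, 0% and 0.294%, on 16, 23 and 55 against 1, 0 and 1 reads. With so few reads on the S100A4-positive side the size of these differences is poorly fixed.

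**Figure D3:**
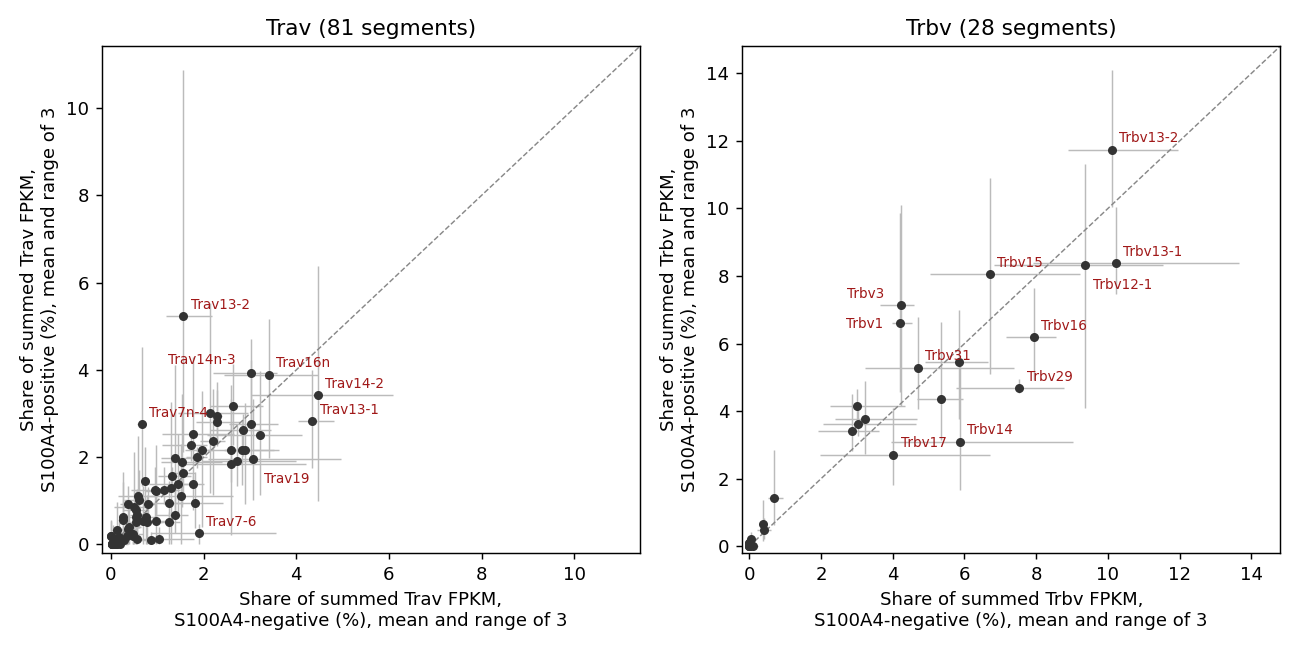
Share of the chain's summed FPKM in S100A4-positive libraries (vertical axis, %) against that in S100A4-negative libraries (horizontal axis, %) for the 81 Trav and 28 Trbv segments, with points at the mean and bars for the range of 3 libraries in each group; the dashed line marks equal shares. The bar of Trav13-2 reaches 10.9% through S100A4-positive replicate 3, and Trbv29 lies under the line.

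Evenness was high in every library and overlapped between groups for the alpha chain. Pielou evenness, which is 1 when all detected segments are equal, was 0.910, 0.926 and 0.922 for Trav in S100A4-negative libraries and 0.943, 0.943 and 0.910 in S100A4-positive ones. For Trbv it was 0.861, 0.901 and 0.867 against 0.951, 0.895 and 0.904, again with overlap. Without members under a mean of 1 FPKM, the S100A4-positive minus S100A4-negative difference of the means was -0.019 for Trav, where with them it was 0.012. For Trbv it was 0.0052, where with them it was 0.041.

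The effective number of segments, the exponential of Shannon's entropy, was 50.8, 53.9 and 51.6 for Trav against 45.9, 41.5 and 42.7, which did not overlap. For Trbv it was 16.0, 16.9 and 15.7 against 17.3, 16.5 and 15.7. The S100A4-positive libraries, with the lower Trav numbers, also had fewer Trav reads than the S100A4-negative ones. Within the S100A4-positive group, 246, 231 and 390 Trav reads stood beside effective numbers of 45.9, 41.5 and 42.7. The part of depth in these numbers was not tested. The inverse Simpson number estimated from reads, which allows for depth, was 40.5, 45.4 and 44.5 for Trav against 46.7, 41.9 and 32.4, with overlap and with S100A4-positive replicate 3, the library of the high Trav13-2 share, the lowest. For Trbv it was 14.7, 15.7 and 14.0 against 16.8, 14.4 and 14.0.

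Fewer Trav segments were seen in S100A4-positive libraries, 58, 52 and 62 against 75, 74 and 72. At a common depth of 231 Trav reads the expected number was 57.2, 58.9 and 57.4 in S100A4-negative libraries, beside 57.2, 52.0 and 55.9 in S100A4-positive ones. Trbv segments above 0 numbered 25, 23 and 24 against 20, 23 and 21, and at 506 reads 20.2, 20.4 and 20.9 against 20.0, 23.0 and 20.5. At equal depth the numbers thus overlapped between groups for both chains, for Trav only through S100A4-positive replicate 1.

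The 10 leading Trav segments of a library together held 38.7%, 34.2% and 35.4% of the summed Trav FPKM against 38.2%, 40.4% and 44.6%. For the beta chain, with fewer segments, the 10 leading ones held 77.6%, 70.4% and 78.2% against 67.8%, 74.1% and 77.2%. Pseudogenes held 1.45% to 3.73% of the Trav and 0.260% to 0.838% of the Trbv sum over the 6 libraries.

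**Figure D4:**
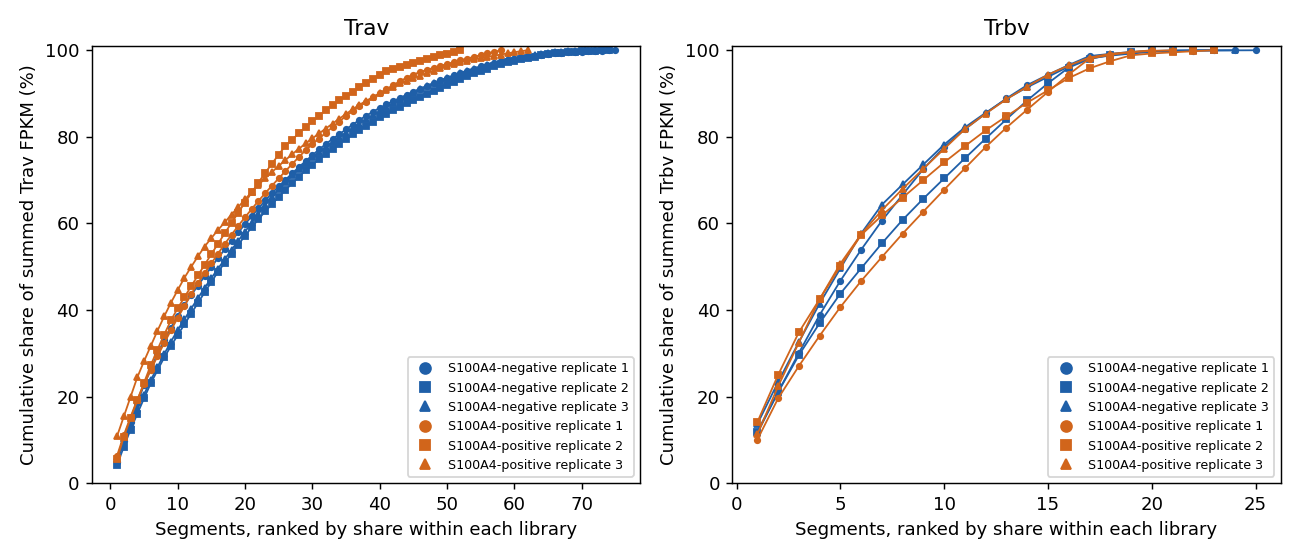
Cumulative share of the summed Trav (left) and Trbv (right) FPKM in percent against the rank of segments within each library, with a line per library, S100A4-negative in blue and S100A4-positive in orange. The first segment holds 4.21% to 10.9% for Trav and 10.1% to 14.1% for Trbv.

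Pairs of libraries were compared by Bray-Curtis dissimilarity of their shares, which is 0 for equal and 1 for disjoint profiles. For Trav it was 0.168 to 0.219 within the S100A4-negative group, 0.375 to 0.384 within the S100A4-positive group and 0.230 to 0.333 between groups. The S100A4-positive libraries thus differed more from each other than from the S100A4-negative ones, where the S100A4-negative libraries held 6.88 times as many Trav reads on average. For Trbv the ranges were 0.138 to 0.193, 0.176 to 0.236 and 0.120 to 0.293.

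The coreceptor transcripts differed among libraries of a single gate. Cd4 was at 67.2, 337 and 111 FPKM in S100A4-negative libraries and 42.5, 52.4 and 66.6 in S100A4-positive ones, and Cd8a at 187, 85.2 and 139 against 13.6, 22.4 and 31.9. Cd4 thus made up 26.4%, 79.8% and 44.4% of Cd4 plus Cd8a against 75.8%, 70.0% and 67.6%, although the gate was CD4-. S100A4-negative replicate 2 stood apart from its group, and without it 46 Trav and 20 Trbv segments were called lower by limma, beside 38.7% of all genes tested. Without both libraries numbered 2, a setting chosen after seeing the data, 45 and 20 were, beside 29.9%.

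Several Trbv shares, chosen after their values were seen, differed in the same library. Trbv2 held 2.07%, 4.65% and 2.38% in S100A4-negative libraries against 4.03%, 3.26% and 3.58%. Trbv20 held 2.25%, 4.35% and 2.40% against 3.69%, 4.09% and 4.67%, and Trbv31 held 3.47%, 7.39% and 3.23% against 5.04%, 4.06% and 6.78%. For each of these, S100A4-negative replicate 2 was the highest of its group and lay within or above the S100A4-positive values. Trbv17 ran the opposite way in the S100A4-negative group, at 6.71%, 1.98% and 3.37%, against 4.08%, 2.24% and 1.83%. The part of the coreceptor makeup in these shares was not tested.

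**Figure D5:**
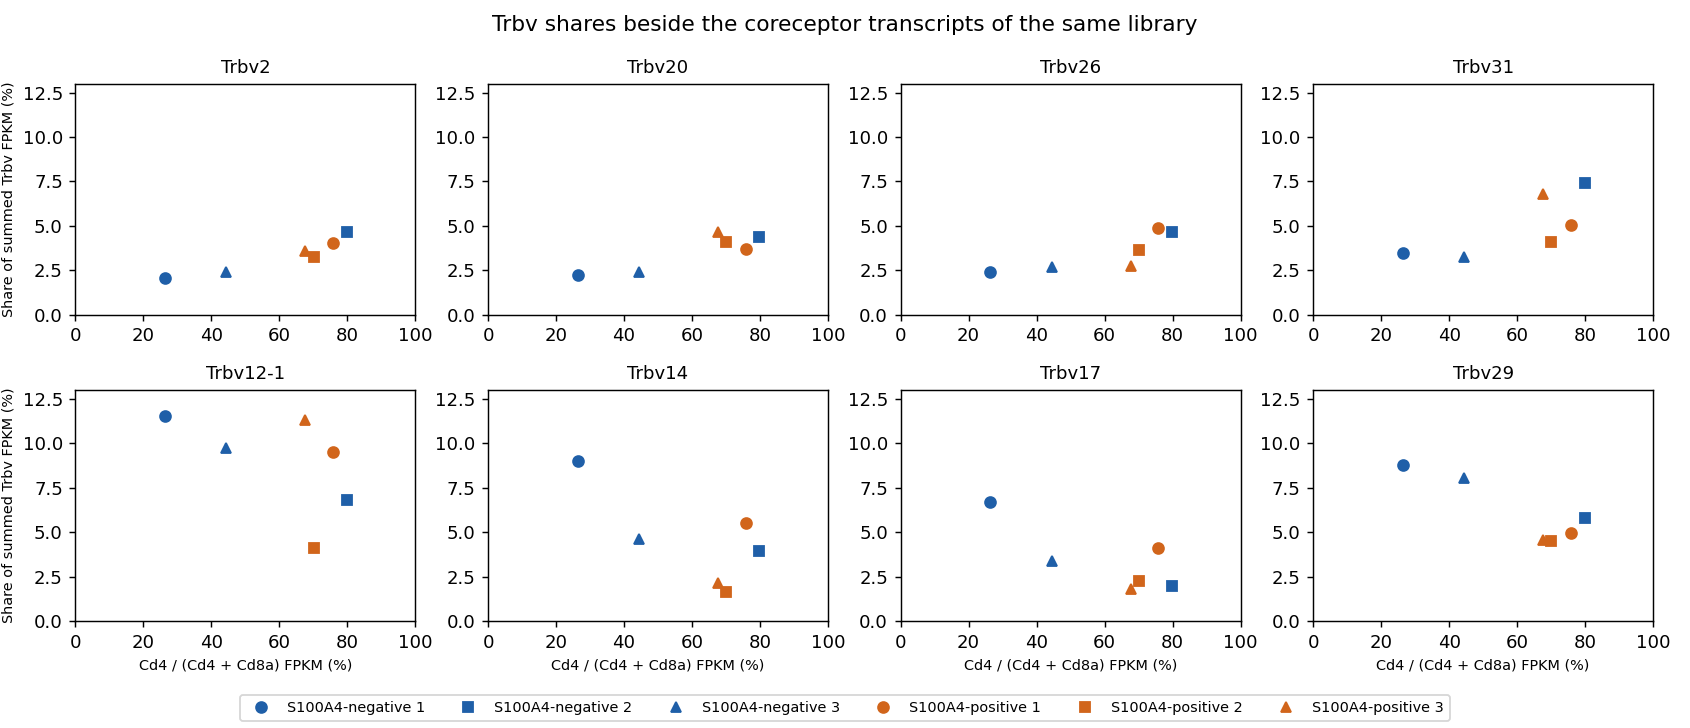
Share of the summed Trbv FPKM (vertical axis, %) of 8 Trbv segments chosen after their values were seen, against Cd4 as a percentage of Cd4 plus Cd8a FPKM (horizontal axis), with a point per library. S100A4-negative replicate 2 (blue square, 79.8%) has the highest Trbv2 and Trbv31 shares, at 4.65% and 7.39%.

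Segments of known semi-invariant receptors were low. Trav1, the alpha segment of mucosal-associated invariant T cells, was at 2.02, 3.05 and 2.45 FPKM in S100A4-negative libraries and 0, 0 and 0.165 in S100A4-positive ones, on 12, 19 and 16 against 0, 0 and 1 reads (log2 fold change -1.73, SE 0.19, limma adjusted p = 0.000296). It has 100% unique windows, and its share did not overlap between groups, at 0.606%, 0.992% and 0.971% against 0%, 0% and 0.276%. In reads, the Wilson intervals of its share in S100A4-positive libraries reached up to 1.54%, 1.64% and 1.44%. Each of these intervals spans the S100A4-negative values, so counting error in a single library can cover the gap. Trav11, the alpha segment of invariant natural killer T cells, was listed at 0 in all libraries and its copy Trav11d had 1 read, in S100A4-negative replicate 1. The coding sequence of Trav11d is contained in that of Trav11 and neither has a unique 50-base window, so these values say little of how often the segment was used. With Trav11n, a further member, the Trav11 family held 0.155%, 0.266% and 0% of the summed Trav FPKM against 0%, 0.962% and 0%.

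Their usual beta partners, Trbv13-2, Trbv29 and Trbv1 for natural killer T cells and Trbv19 and Trbv13-3 for mucosal-associated cells, are used by many other T cells too. Trbv19 was at 24.6, 25.6 and 12.6 against 3.65, 2.49 and 3.46 FPKM (log2 fold change -2.33, SE 0.28, limma adjusted p = 0.000434), and its share overlapped. Traj18, the joining segment of the invariant natural killer T cell receptor, had 13, 12 and 12 reads against 3, 0 and 4. Traj33, that of mucosal-associated cells, had 9, 6 and 2 against 2, 0 and 0. Both were chosen after their values were seen. All joining segments together gave 702, 487 and 510 against 92, 47 and 74 Traj reads, and 800, 738 and 717 against 83, 73 and 114 Trbj reads.

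Innate-like T cell markers did not move in a single direction. Slamf6 (log2 fold change -2.38) and Klrb1c (-0.65) were called lower, and Zbtb16, a transcription factor of innate-like T cells, was called higher (1.45, limma adjusted p = 0.000666). Cd1d1 and Mr1, which present antigen to such cells, were not called.

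Genes of the gamma-delta receptor, the alternative receptor of T cells, moved in both directions. The list has 18 genes with a row of expression values, among them Sox13, a transcription factor of gamma-delta T cells. Of these, 7 were tested, all receptor genes: 4 were called lower (Trgc2, Trdv1, Trgv1 and Trgv2), 2 higher (Trgc1 and Trdv4) and 1 not called. Of all genes tested, 43.4% were called lower and 19.0% higher. The median log2 fold change of the 7 was -0.79. The 11 not tested also differed in both directions. Sox13 was at 0.204, 0.279 and 0.292 against 1.55, 1.49 and 2.08 FPKM. Trgv6 was at 0.302, 0.144 and 0.137 against 0.757, 1.55 and 2.96 FPKM, and Trgv7 at 0, 0.153 and 0.437 against 0, 0 and 0. Trdv4 was at 0.398, 1.01 and 0.483 against 1.60, 5.89 and 4.41 FPKM (1.51, SE 0.36, limma adjusted p = 0.00915), without overlap. Trgc1 was at 1.40, 2.37 and 1.68 against 3.32, 5.66 and 5.05 FPKM (1.00, limma adjusted p = 0.00654). Trdv1 went the other way, at 3.51, 2.34 and 4.15 against 0.176, 0 and 0.515 FPKM (-1.81, limma adjusted p = 0.000691). The difference between these genes and the alpha-beta segments was not tested.

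Of the recombination list, drawn from the machinery that assembles receptors, Rag1, Rag2, Dntt and Ptcra are known to be active in developing and not in mature T cells. Rag1 and Rag2, which cut at the segments, and Dntt, which adds bases at the joints, were under the tested level, at most 1.21, 0.109 and 1.03 FPKM in any library. Ptcra, the partner of the beta chain in immature thymocytes, was at 0 in all 6. Of 7 tested genes of this list, the DNA repair genes Lig4, Xrcc5, Xrcc6 and Prkdc were called lower and Xrcc4, Dclre1c and Nhej1 were not called, beside 43.4% of all genes tested called lower. Xrcc5, a subunit of the Ku protein that holds broken ends, changed most, at 10.5, 9.998 and 11.6 against 1.88, 2.65 and 2.83 FPKM (log2 fold change -1.77, limma adjusted p = 0.000159).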

How the data were processed

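Polyadenylated RNA of 6 sorted samples had been sequenced. The authors deposited FPKM per gene and library, and a comparison table that holds, per the file headers, a mean normalized read count (a signal) per group, a log2 fold change, a p-value and an adjusted p-value. The submitters' processing notes name HISAT2 2.1.0, Cufflinks, Cuffnorm and mm10. The counting tool and its use of strand are not given in the sources used here. Whole reads were recovered from the deposited FPKM and group means: 135018 of 135018 values (100%) lay within 0.02 of a whole read. Library totals were 14925260 to 18660188.

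The 13241 genes averaging 1 FPKM or more entered limma 3.58.1 (R 4.3.3), fitted to log2(FPKM + 1) under a trended prior variance, with Benjamini-Hochberg adjustment over all of them; voom on the recovered reads called 47 Trav and 20 Trbv segments lower. The limma step was tried on simulated counts, and the evenness and common-depth measures on made-up counts with known answers. The simulation changed few genes, all well covered and equally often up and down. It therefore cannot show how the fit behaves on these data, where many genes differ and many segments have few reads. Shares, evenness and dissimilarity were computed with Python 3.11.15. Unique windows and sequences came from GENCODE M21 transcripts.

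Segments named are the 5 with the highest mean share per chain and group, those of at least 5 FPKM whose change departs most from their chain without overlap in share, those with a share of at least 5% led by a single library, and those of known semi-invariant and ovalbumin-specific receptors, with the list genes. Members and lists were chosen with earlier results of these data known. Same-numbered libraries correlated at 0.38, 0.083 and 0.37 in their deviations from the group means. The labels do not say that the numbers mark shared animals, so they were not taken as pairs in the main fit. A marker gene of the innate-like list is not reported here.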

Additional observations from a re-analysis of the deposited data

How the results depend on the processing

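The number of Trav segments called lower by limma was 46 to 49 when each library was left out in turn, and that of Trbv segments stayed at 20. With a filter at a mean of 5 FPKM only 7 Trav segments were tested and 7 were called, since fewer segments pass it. Median-of-ratios rescaling shifted the median log2 fold change of all genes by 0.35, gave 46 Trav and 20 Trbv segments lower beside 24.1% of all genes tested, and moved the log2 ratio of the summed levels to -2.30 for Trav and -2.53 for Trbv, from -2.68 and -2.91. Leaving out a library gave -2.90 to -2.57 and -3.09 to -2.81. With the replicate number as a block, 48 Trav and 20 Trbv segments were called lower, beside 46.7% of all genes tested. For replicates 1 and 3 the same-numbered library of the other group correlated best (0.38 and 0.37). S100A4-positive replicate 2 correlated best with S100A4-negative replicate 3 (0.15, beside 0.083 with S100A4-negative replicate 2). Whether the numbers mark pairs cannot be told from these values.

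For segments with a mean of at least 1 FPKM the difference in Pielou evenness was -0.019 for Trav and 0.0052 for Trbv. The mean share of Trbv13-2, S100A4-positive minus S100A4-negative, differed by 1.63 percentage points, and that of the whole Trbv13 family by -1.21. The highest Trbv share of a library, whichever segment held it, differed by -0.56. For the highest Trav share the difference was 0.876 to 3.55 percentage points when a library was left out, lowest without S100A4-positive replicate 3. Between-group minus within-group dissimilarity lay at -0.045 to 0.069 for Trav and -0.018 to 0.040 for Trbv, so its sign rests on single libraries. For the named segments, 329 alternative values kept direction and side of the threshold, and 1, Trav13-2 without S100A4-positive replicate 3, became called. Summing families leaves the chain sums and ratios as they are, and so was not run for them. Dropping both libraries numbered 2 and counting segments at a common depth were chosen after seeing the data. Depth limits the S100A4-positive Trav shares, which rest on 231 to 390 reads per library.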
